A study of Mus musculus with 2 samples.

Results

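Serpins are proteins of one shared fold, most of which block proteases. The serpin genes of the mouse were taken here as every gene symbol made of Serpin, a clade letter a to i, a number and an optional paralog letter, which gave 63 genes of the 43346 annotated genes measured, of which 61 are annotated as protein coding. They were measured in 2 polyA-selected RNA libraries of C57BL/6J subcutaneous adipose tissue, a white fat depot under the skin, in which males and females, littermates aged 8 weeks, were pooled. The labels name no engineered allele and no treatment, and the health state is given as unknown. The libraries are numbered biological replicates 2 and 1 of a single group, each from its own tissue sample, though the donor record is shared. Nothing in the labels says how many animals went into each, and with 1 library on each side the comparison of replicate 2 with replicate 1 compares these libraries and has no p-value.

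An inhibitory serpin carries an exposed stretch, the reactive centre loop, that a target protease cuts as if it were a substrate. The cut loop then folds into the body of the serpin and drags the protease with it, which traps both in a dead complex. The sequence of the loop sets which protease takes the bait, so paralogs that differ there can guard against different enzymes. A minority of serpins have lost this trap and act as chaperones, hormone carriers or growth regulators. Clade a serpins are mostly secreted and in the body come largely from the liver, clade b serpins mostly stay inside the cell that makes them, and fat is a known source of pigment epithelium-derived factor and, in the mouse, of Serpina3 proteins.

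Replicate 2 had 58687668 estimated counts in all and replicate 1 had 54752739. The libraries differed in what else they held. The summed level of 10 adipocyte markers was 28812.76 TPM (a level per transcript length, relative to all transcripts) in replicate 2 and 8312.70 TPM in replicate 1, and all 10 were over 2-fold higher in replicate 2. In the other direction, all 12 epithelial markers were over 2-fold higher in replicate 1, with summed levels of 15.98 TPM in replicate 2 and 857.11 TPM in replicate 1. Of 14 uterus and oviduct markers 12 were over 2-fold higher in replicate 1, with summed levels of 38.96 TPM in replicate 2 and 776.92 TPM in replicate 1. All 8 smooth muscle markers were as well, summing to 684.13 TPM in replicate 2 and 6073.58 TPM in replicate 1. The defining fat genes were thus abundant in both libraries, and replicate 1 also held genes of other tissues. In tissue RNA, fewer cells of a type and less RNA per cell cannot be told apart, which holds for every difference below. The part of these marker differences in the serpin results was not tested.

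A total of 19 serpins had 1 TPM or more in both libraries, against 29.4% of all annotated genes and 55.5% of protein coding genes. Serpina3m reached it in replicate 2 only, and Serpina1e, Serpina1f, Serpinb2, Serpinb11, Serpinc1 and Serpini1 in replicate 1 only. A further 15 had a count of 0 in both libraries, a state shared by 19.1% of protein coding genes, and the other 22 stayed below a TPM of 1 in both with at most 56 counts in a library. For the 15 genes at 0, a floor of 3 counts allows levels of 0.0303 to 0.0945 TPM in replicate 2 and 0.0355 to 0.110 TPM in replicate 1. Floors and intervals here cover counting error only.

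All serpins together summed to 2909.29 TPM in replicate 2 and 2376.17 TPM in replicate 1, which is 0.291% of all TPM in replicate 2 and 0.238% in replicate 1. A handful of genes made up nearly all of it: the 5 highest serpins held 90.5% of serpin TPM in replicate 2 and 91.0% in replicate 1. They were not the same 5. Serpina3n, Serpinh1, Serping1, Serpinf1 and Serpina3c led in replicate 2, and Serpinh1, Serping1, Serpinf1, Serpine2 and Serpina3n led in replicate 1. In the order of mean TPM over the 11 serpins with a mean of at least 10, each gene overlapped the next over the 2 libraries except at one step, between Serpinf1 and Serpina3c.

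**Figure D1:**
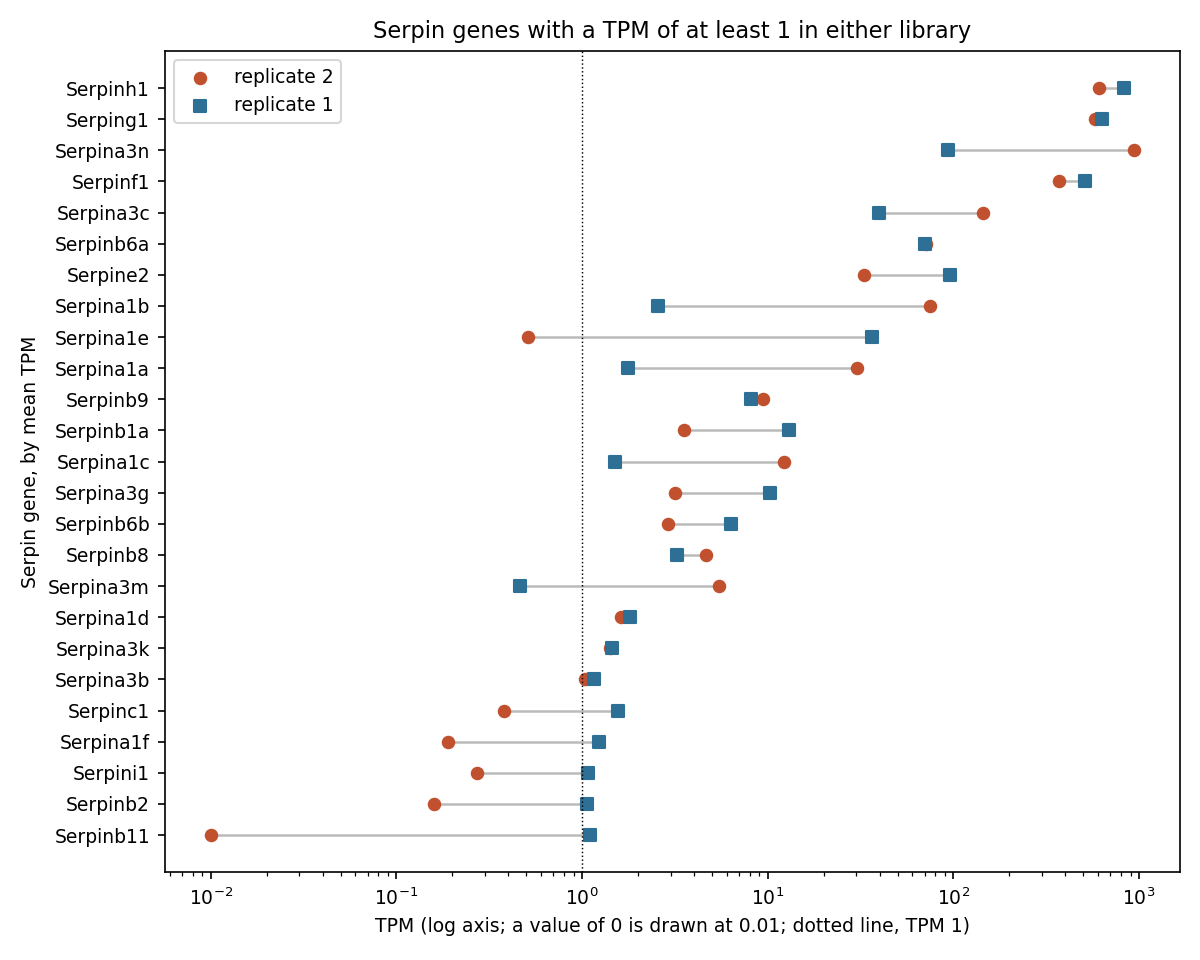
TPM (log axis) of 25 serpins with a TPM of at least 1 in either library, one row a gene, ordered by mean TPM. Circles are replicate 2 and squares replicate 1. Serpinh1, Serping1 and Serpinf1 lie close together at the top, while Serpina3n, at 934.54 TPM in replicate 2 and 93.79 TPM in replicate 1, and the Serpina1 genes have long gaps between their points.

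In summed TPM, clade a differed most between the libraries. The 25 clade a genes summed to 1210.35 TPM in replicate 2 and 195.39 TPM in replicate 1, which is 41.6% of serpin TPM in replicate 2 and 8.22% in replicate 1. The 27 clade b genes summed to 92.79 TPM in replicate 2 and 103.82 TPM in replicate 1, and 12 of them were at 0 in both. The single clade g gene and the single clade h gene each lay above 500 TPM in both libraries. Clades c, d and i, with 4 genes in all, summed to at most 1.57 TPM per clade in either library.

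For the replicate comparison, counts were scaled with TMM factors, which set most genes equal, and genes with a mean scaled count of 100 or more were called over 2-fold apart where the exact 95% interval of the ratio lay beyond 2-fold throughout. Of 19 serpins with that many counts, 7 were over 2-fold higher in replicate 2 and 3 were over 2-fold higher in replicate 1. Over all 13403 genes with that many counts, the shares called were 10.6% higher in replicate 2 and 12.5% higher in replicate 1, or 23.1% in all. The median log2 ratio was 0.67 for the 19 serpins and 0.04 for all those genes. Among those called were Serpina1a, Serpina1b, Serpina1c, Serpina3c, Serpina3m and Serpina3n on the side of replicate 2 and Serpina1e, Serpinb1a and Serpine2 on the side of replicate 1. The remaining 9 included the most abundant members Serpinh1, Serping1 and Serpinf1.

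**Figure D2:**
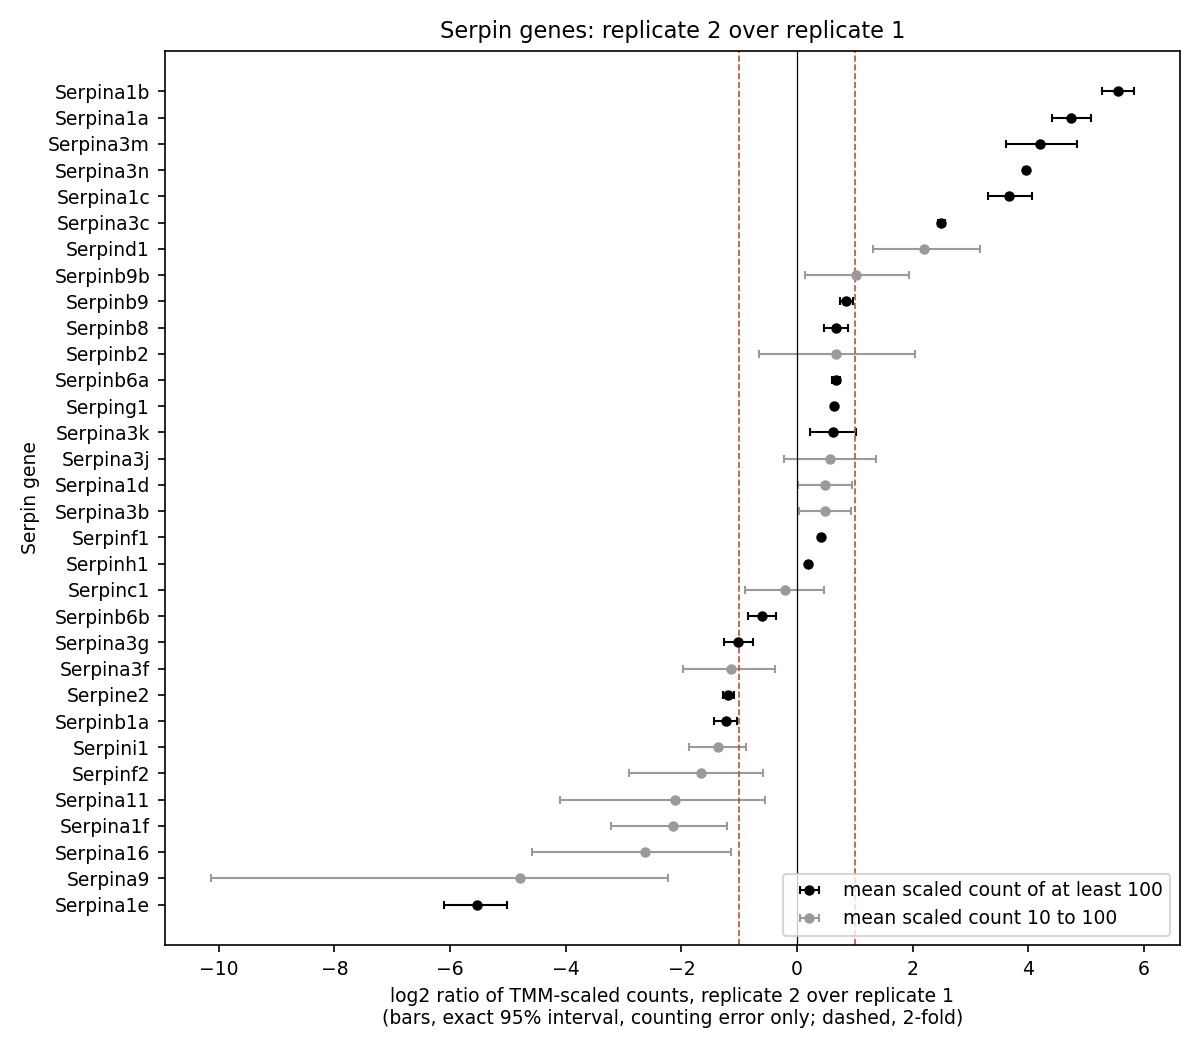
Log2 ratio of TMM-scaled counts, replicate 2 over replicate 1, for 32 serpins with counts in both libraries and 10 or more mean scaled counts. Bars are exact 95% intervals (counting error only), black points have 100 or more, and dashed lines mark 2-fold. Serpina1b, with a log2 ratio of 5.54, and Serpina1e, with -5.54, sit at the top and bottom.

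Serpinh1, also called HSP47, is the chaperone of the endoplasmic reticulum that holds procollagen in its triple helix and inhibits no protease. Its level was 607.79 TPM in replicate 2 and 827.10 TPM in replicate 1, a mean of 717.44 ± 155.08 TPM (SD, n = 2) and the highest mean of any serpin. It had 55077 counts in replicate 2 and 64118 in replicate 1, a TMM-scaled ratio of 1.14 (95% interval 1.13 to 1.16), and the log2 ratio was 0.19 with TMM and -0.32 when the libraries were scaled by total count. The gene lies at chr7:99345376-99353239 on the minus strand (GRCm38). Its first transcript, Serpinh1-201, took 95.01% of the gene's TPM in replicate 2 and 90.81% in replicate 1.

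The collagens it serves did not share a direction. All 24 genes of a list of collagen chains and their processing partners had 1 TPM or more in both libraries, 6 stood over 2-fold higher in replicate 2 and another 5 did in replicate 1, and the median log2 ratio was -0.27. The fibrillar chain Col1a2 was 3.57-fold higher in replicate 1, with 109.43 TPM in replicate 2 and 664.44 TPM in replicate 1. The basement membrane chain Col4a1 was 2.39-fold higher in replicate 2, with 434.17 TPM in replicate 2 and 284.03 TPM in replicate 1. Both were named after their values were seen. The most abundant of the list, Sparc, which binds collagen outside the cell, had 8089.35 TPM in replicate 2 and 3908.09 TPM in replicate 1.

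Serping1 encodes the C1 inhibitor, which stops the first complement proteases and also plasma kallikrein. It had 578.68 TPM in replicate 2 and 632.40 TPM in replicate 1 (mean 605.54 ± 37.99 TPM, SD, n = 2). Its 35897 counts in replicate 2 and 30664 in replicate 1 gave a scaled ratio of 1.56 (1.54 to 1.58), within 2-fold, so TPM and scaled counts order the libraries in opposite ways. The transcript mix moved as well. The coding form was the main one in both. Serping1-201 took 83.10% of the gene's TPM in replicate 2 and 69.32% in replicate 1, and the non-coding Serping1-203 took 16.71% in replicate 2 and 30.53% in replicate 1. Of 9 complement and lectin pathway genes listed beside it, 7 had 1 TPM or more in both libraries and none of these 7 was called over 2-fold apart. Masp2, a protease of the lectin pathway named after its values were seen, had 71 counts in replicate 2 and 222 in replicate 1, 2.35-fold (1.79 to 3.11) towards replicate 1 without passing the bound. C1s1, a protease that the C1 inhibitor traps, had 180.73 TPM in replicate 2 and 273.94 TPM in replicate 1, a scaled ratio of 1.16 (1.13 to 1.19).

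Serpinf1 encodes pigment epithelium-derived factor, a secreted serpin without inhibitory activity that restrains vessel growth and is made by fat. Its level was 369.18 TPM in replicate 2 and 512.32 TPM in replicate 1 (mean 440.75 ± 101.22 TPM, SD, n = 2). The counts were nearly equal, 11367 in replicate 2 and 11363 in replicate 1, a scaled ratio of 1.33 (1.30 to 1.37) whose log2 value was 0.41 with TMM and -0.10 under scaling by total count. TPM divides by transcript length, and the program gave the 605-nt transcript Serpinf1-202 55.15% of the gene's TPM in replicate 2 and 68.13% in replicate 1. The 1832-nt transcript Serpinf1-201 took 17.51% in replicate 2 and 10.45% in replicate 1, although it held 4606 counts in replicate 2 and 3258 in replicate 1. Between them in length, the 976-nt Serpinf1-208 took 23.12% in replicate 2 and 14.81% in replicate 1. It is annotated as nonsense-mediated decay, the breakdown of faulty transcripts. The level of Serpinf1 in TPM therefore rests largely on how reads were divided among forms of unlike length. Its neighbour Serpinf2 encodes alpha2-antiplasmin, the fast inhibitor of plasmin, and had 9 counts in replicate 2 and 38 in replicate 1.

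The Serpina3 genes are the mouse expansion of a single human gene, antichymotrypsin, and 11 of them are among the serpins. As a group they had 89642 counts in replicate 2 and 10317 in replicate 1, an 11.6-fold scaled ratio (11.3 to 11.8). Serpina3n, an inhibitor of granzyme B and leukocyte elastase in the mouse, accounted for most of it. It had 76168 counts and 934.54 TPM in replicate 2, and 6524 counts and 93.79 TPM in replicate 1, a ratio of 15.6 (15.2 to 15.9). That made it the highest serpin in replicate 2 and only the fifth in replicate 1.

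Serpina3c had 12660 counts and 143.72 TPM in replicate 2, and 2988 counts and 39.75 TPM in replicate 1, a ratio of 5.64 (5.42 to 5.87). Serpina3m had 345 counts in replicate 2 and 25 in replicate 1, a ratio of 18.4 (12.2 to 28.8). Both stood with Serpina3n. Serpina3g, an intracellular inhibitor of cysteine cathepsins, lay the other way without passing the bound, with 189 counts in replicate 2 and 508 in replicate 1, 2.02-fold (1.70 to 2.40) towards replicate 1. Serpina3k had 115 counts in replicate 2 and 100 in replicate 1. The annotated span of Serpina3m starts where that of Serpina3k starts, and 143 of the 76-nt windows of each transcript set occur in both, so reads of these genes can be confused. Serpina3b, with 85 counts in replicate 2 and 81 in replicate 1, was close to even, and the other 5 had at most 56 counts in either library. The group was thus not uniform: its abundant members stood with replicate 2 while Serpina3g and the sparse Serpina3f did not.

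Serpina3n and Serpina3c lie on opposite strands of the chromosome 12 cluster, and their promoters are close relatives. Over 294 aligned bases of their RefSeq promoters (GRCm38.p6), 93.5% were identical. The last 150 aligned bases before both starts are shown because this is the sequence in front of the RefSeq starts of the most abundant Serpina3 genes, Serpina3n from chr12:104406555-104406704 on the plus strand and Serpina3c from chr12:104153873-104154022 on the minus strand. Capitals mark the 9 bases at which they differ.
Serpina3n: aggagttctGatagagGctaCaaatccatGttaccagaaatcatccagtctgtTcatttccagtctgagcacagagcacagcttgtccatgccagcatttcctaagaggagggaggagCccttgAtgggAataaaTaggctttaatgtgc
Serpina3c: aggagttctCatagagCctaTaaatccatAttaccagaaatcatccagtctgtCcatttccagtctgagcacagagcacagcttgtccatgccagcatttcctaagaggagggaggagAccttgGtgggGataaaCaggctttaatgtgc
The motif TATAAA, searched on both strands of the promoters from 250 bases before to 50 bases after the start, was found for Serpina3c and not for Serpina3n. It occurs in 13.6% of 32851 RefSeq promoters and in those of 15 of the 53 serpins with a promoter sequence. In the shown bases the match of Serpina3c lies towards the end far from the start, at taTaaa, where Serpina3n has taCaaa. Close to the start, Serpina3n reads AataaaTagg and Serpina3c reads GataaaCagg. A match describes the letters only.

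Serpina1a, Serpina1b, Serpina1c, Serpina1d and Serpina1e are the mouse copies of the human gene for alpha1-antitrypsin, the main inhibitor of neutrophil elastase in plasma. In these libraries the copies changed places. Serpina1b, the first of them in replicate 2, had 4095 counts in replicate 2 and 117 in replicate 1, and its TPM was 74.62 in replicate 2 and 2.57 in replicate 1. Serpina1a had 1547 counts in replicate 2 (30.43 TPM) and 77 in replicate 1 (1.77 TPM). Serpina1c had 619 counts in replicate 2 (12.26 TPM) and 65 in replicate 1 (1.51 TPM).

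Serpina1e ran the other way, with 30 counts in replicate 2 (0.51 TPM) and 1853 in replicate 1 (36.22 TPM). Serpina1d was near even at 84 counts in replicate 2 and 80 in replicate 1. The scaled ratios were 46.6 (38.8 to 56.5) for Serpina1b, 26.8 (21.3 to 34.1) for Serpina1a and 12.7 (9.81 to 16.6) for Serpina1c, each higher in replicate 2. Serpina1e was 46.4-fold (32.4 to 68.9) higher in replicate 1. Summed over the 5 copies, which does not depend on how reads were divided among them, there were 6374 counts in replicate 2 and 2192 in replicate 1, a ratio of 3.87 (3.69 to 4.07). Serpina1b held 64.2% of that sum in replicate 2 and 5.32% in replicate 1, and Serpina1e held 0.466% in replicate 2 and 84.5% in replicate 1. The makeup of the group therefore moved far more than its total.

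**Figure D3:**
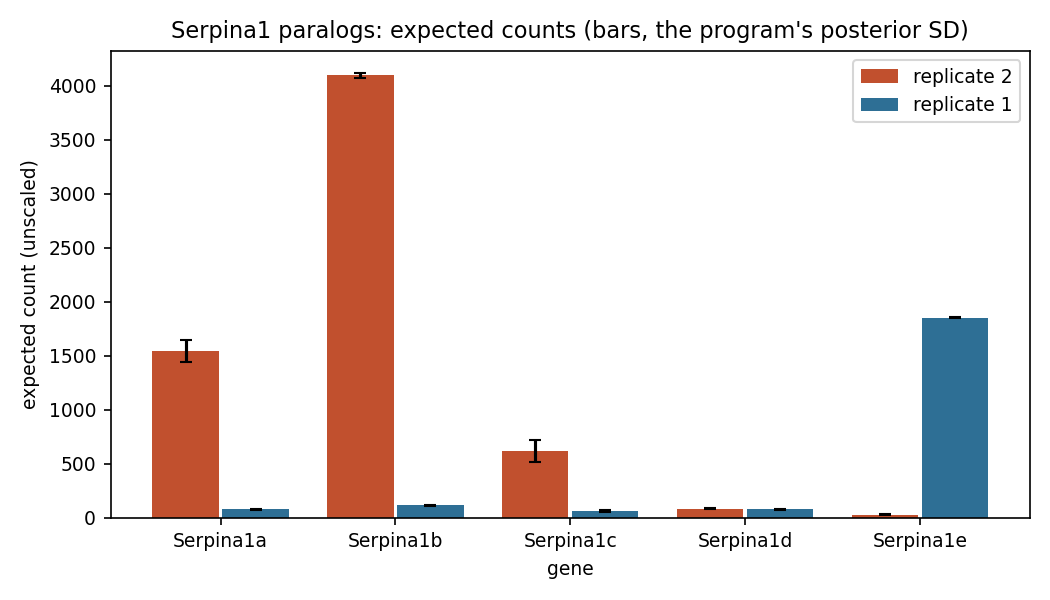
Unscaled expected counts of the 5 Serpina1 copies, replicate 2 on the left of each pair and replicate 1 on the right. Error bars are the posterior SD that the authors' program gives for the division of reads. Serpina1b is tallest in replicate 2 at 4095 counts, and Serpina1e in replicate 1 at 1853.

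The copies are nearly the same gene. Their coding sequences, each 1239 bases long in the most counted transcript, were 96.3% to 98.5% identical in pairs, and 86 of the 1239 aligned bases differed in at least 1 copy. The differences bunch together. A 75-base window chosen for having the most of them, bases 1099 to 1173 of the coding sequence, held 19, or 25.3% of its bases against 6.94% over the whole. This stretch encodes much of the reactive centre loop, the bait that meets the protease, and runs past its end, so not all 19 lie in the loop. It is shown because it holds that part of the loop, read from the GENCODE M21 transcripts (minus strand of chromosome 12, GRCm38). Capitals mark the bases that are not the same in all 5.
Serpina1a: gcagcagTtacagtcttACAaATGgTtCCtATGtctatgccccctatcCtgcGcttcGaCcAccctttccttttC
Serpina1b: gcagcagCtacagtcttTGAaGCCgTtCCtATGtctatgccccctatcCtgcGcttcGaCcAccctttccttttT
Serpina1c: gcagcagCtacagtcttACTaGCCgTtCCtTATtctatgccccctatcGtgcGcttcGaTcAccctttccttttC
Serpina1d: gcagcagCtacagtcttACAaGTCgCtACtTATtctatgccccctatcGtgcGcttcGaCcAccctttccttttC
Serpina1e: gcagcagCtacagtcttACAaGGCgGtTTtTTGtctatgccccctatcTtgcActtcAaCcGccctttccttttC
The copy that led in replicate 2, Serpina1b, and the copy that led in replicate 1, Serpina1e, are among those that differ here, in the part that selects a target. Which proteases each mouse copy meets in fat was not measured.

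Near identity also limits the counting. The program's posterior SD, its own uncertainty about the division of reads, was above 5% of the count for 4 of the 38 serpins with a posterior mean of at least 10 counts, against 4.72% of all genes with that many. Those 4 were Serpina1a, Serpina1c, Serpina1d and Serpina1e. Serpina1c had the largest, 16.2% in replicate 2 and 12.4% in replicate 1, and only 34.2% of its 76-nt windows, the read length, occur in no other gene. Serpina1a had 6.50% in replicate 2 and 10.8% in replicate 1, with 51.0% of windows unique and 805 windows shared with Serpina1c. The 2 copies that traded places were better resolved where they were abundant. Serpina1b, with 81.4% unique windows, had a posterior SD of 0.520% in replicate 2, and Serpina1e, with 80.7%, had 0.193% in replicate 1. With the interval widened by the posterior SD, all 7 and 3 calls of the whole family were made again. Of the 38 serpins, 26 had a posterior SD of 0 in both libraries. The annotated span of Serpina1b also contains that of Serpina1d on the same strand.

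**Figure D4:**
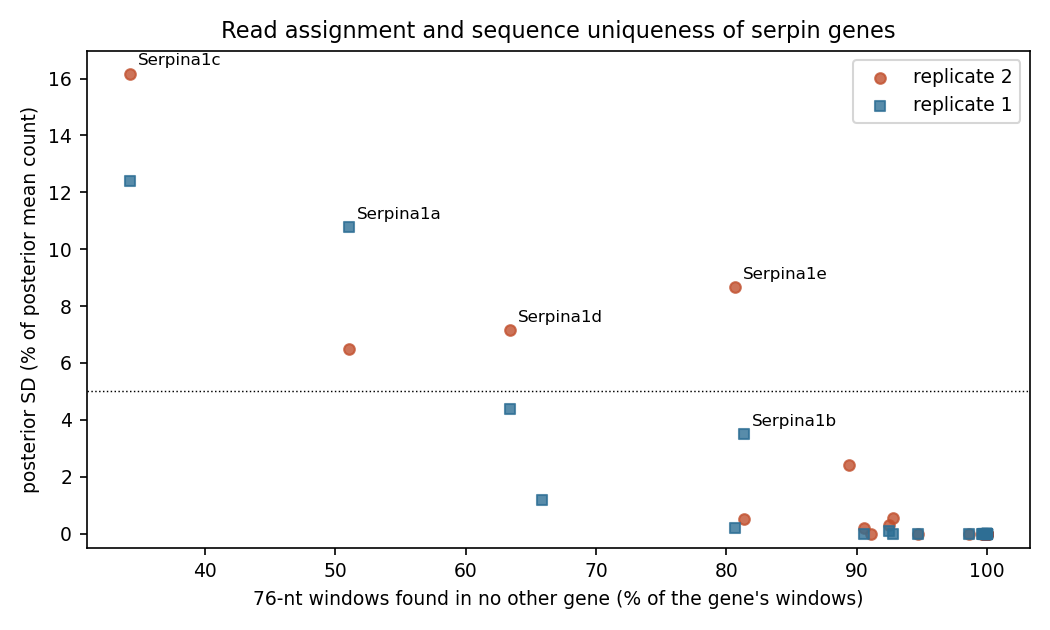
Posterior SD of the count, in % of the posterior mean, against the share of a gene's 76-nt windows that occur in no other gene, for serpins with a posterior mean of at least 10 counts; circles are replicate 2, squares replicate 1, and the dotted line is 5%. Serpina1c, with 34.2% unique windows, has the largest posterior SD in both libraries.

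The sequence at the RefSeq starts of the 5 copies is also close. Pairs were 91.7% to 98.4% identical over their aligned RefSeq promoter bases, and of 238 bases aligned in all 5 only 27 differed, 1 of them in Serpina1e alone. Serpina1b and Serpina1e, the pair that traded places, were 98.4% identical over 248 bases, the highest of the 10 pairs. The pairs were not measured over equal stretches, because bases opposite a gap were not scored. Pairs with Serpina1e had 238 to 249 aligned bases and the other pairs 288 to 298. The last 120 aligned bases before all 5 RefSeq starts are shown so that the copies can be compared there, with capitals at the 10 bases that differ. They run from chr12:103863625-103863744 for Serpina1a, chr12:103738200-103738319 for Serpina1b, chr12:103904962-103905081 for Serpina1c, chr12:103773634-103773753 for Serpina1d and chr12:103956960-103957079 for Serpina1e, all on the minus strand.
Serpina1a: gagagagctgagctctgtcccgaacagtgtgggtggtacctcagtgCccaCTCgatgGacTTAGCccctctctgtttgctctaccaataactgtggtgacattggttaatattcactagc
Serpina1b: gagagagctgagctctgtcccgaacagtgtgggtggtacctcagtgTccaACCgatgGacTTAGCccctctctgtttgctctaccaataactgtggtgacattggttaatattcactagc
Serpina1c: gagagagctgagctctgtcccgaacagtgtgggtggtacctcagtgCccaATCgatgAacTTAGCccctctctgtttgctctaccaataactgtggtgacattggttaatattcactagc
Serpina1d: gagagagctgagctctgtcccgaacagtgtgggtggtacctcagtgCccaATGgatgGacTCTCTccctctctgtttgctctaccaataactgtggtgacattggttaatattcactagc
Serpina1e: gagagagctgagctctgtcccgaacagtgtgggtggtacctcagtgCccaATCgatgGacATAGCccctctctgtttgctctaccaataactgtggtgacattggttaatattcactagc
These bases are not in front of every counted form. All 1853 counts of Serpina1e in replicate 1 were assigned to Serpina1e-202, which starts 2078 bases upstream of the RefSeq start, so that the shown bases lie in an intron of it. They lie in an intron of Serpina1b-202 too, which had 973 counts in replicate 2 and 9 in replicate 1, while Serpina1b-201, with 3121 counts in replicate 2 and 105 in replicate 1, starts 31 bases downstream of its RefSeq start.
Near the end of each is the run GGTTAATATTCAC, which resembles the liver factor HNF1 site known from the human alpha1-antitrypsin promoter and was picked out after the sequences were seen. Searched on both strands, it occurs in 5 of 32851 RefSeq promoters, and those are the promoters of these 5 genes. It was cut from bases shared by all 5, so its presence in them was fixed in advance. An exact match to a run this long is rare in any case. The shorter run GTTAAT within it occurs in 7.10% of those promoters and in 11 of the 53 serpins with a promoter sequence. Binding was not measured here, and sequence beyond these promoters was not compared.

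Liver is the textbook source of these proteins. The 14 hepatocyte markers listed summed to 372.73 TPM in replicate 2 and 222.51 TPM in replicate 1, of which Cyp2e1, an enzyme that fat also expresses, was 341.97 TPM in replicate 2 and 191.50 TPM in replicate 1. Albumin, Alb, had 23.89 TPM in replicate 2 and 13.97 TPM in replicate 1, and the fetuin gene Ahsg had 3.61 TPM in replicate 2 and 3.82 TPM in replicate 1. These 3 had enough counts for a call. Alb, 2.67-fold (2.47 to 2.89), and Cyp2e1 were called higher in replicate 2, the same direction as Serpina1b, and Ahsg, with a ratio of 1.47, was within 2-fold. The other markers had at most 81 counts in a library. The fibrinogen gene Fgb had 0 TPM in replicate 2 and 0.18 TPM in replicate 1. The apolipoprotein gene Apoa1 had 0.31 TPM in replicate 2 and 1.85 TPM in replicate 1. Apob had 2 counts in replicate 2 and 55 in replicate 1, and Fgg had 3 in replicate 2 and 30 in replicate 1. Apoa1, Apob and Fgg lay beyond 2-fold towards replicate 1, below the count minimum. Apoa2, Ttr, Apoh, Fga and Tat also leaned towards replicate 1, opposite to Alb and Cyp2e1. The markers from Fgb on were named after their values were seen. Serpina6, the hepatic carrier of corticosteroids, had 0 counts in replicate 2 and 8 in replicate 1, and Serpina10, a hepatic inhibitor of clotting factor Xa, had none in either. The part of these marker levels in the Serpina1 results was not tested.

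Along chromosome 12 the clade a genes form a cluster of 24 between chr12:103614786 and chr12:104414329, and only Serpina7, the thyroxine carrier, lies elsewhere, on X. Direction differed between stretches of it. The 5 antitrypsin copies follow Serpina1f in the order Serpina1b, Serpina1d, Serpina1a, Serpina1c and Serpina1e, so the copy high in replicate 1 stands at one end. Serpina1f itself had 11 counts in replicate 2 and 65 in replicate 1. Past Serpina1e, Serpina11 had 4 counts in replicate 2 and 23 in replicate 1, and Serpina9 had 1 in replicate 2 and 37 in replicate 1. These 3 sparse genes leaned towards replicate 1. Serpina12, known as the adipokine vaspin, had 12 counts in replicate 2 and 0 in replicate 1. With a floor of 3 counts in place of the 0, it was 5.33-fold higher in replicate 2. The lower end of the exact interval from the counts themselves was 3.70-fold. Serpina5, the protein C inhibitor, had 0 counts in replicate 2 and 6 in replicate 1.

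**Figure D5:**
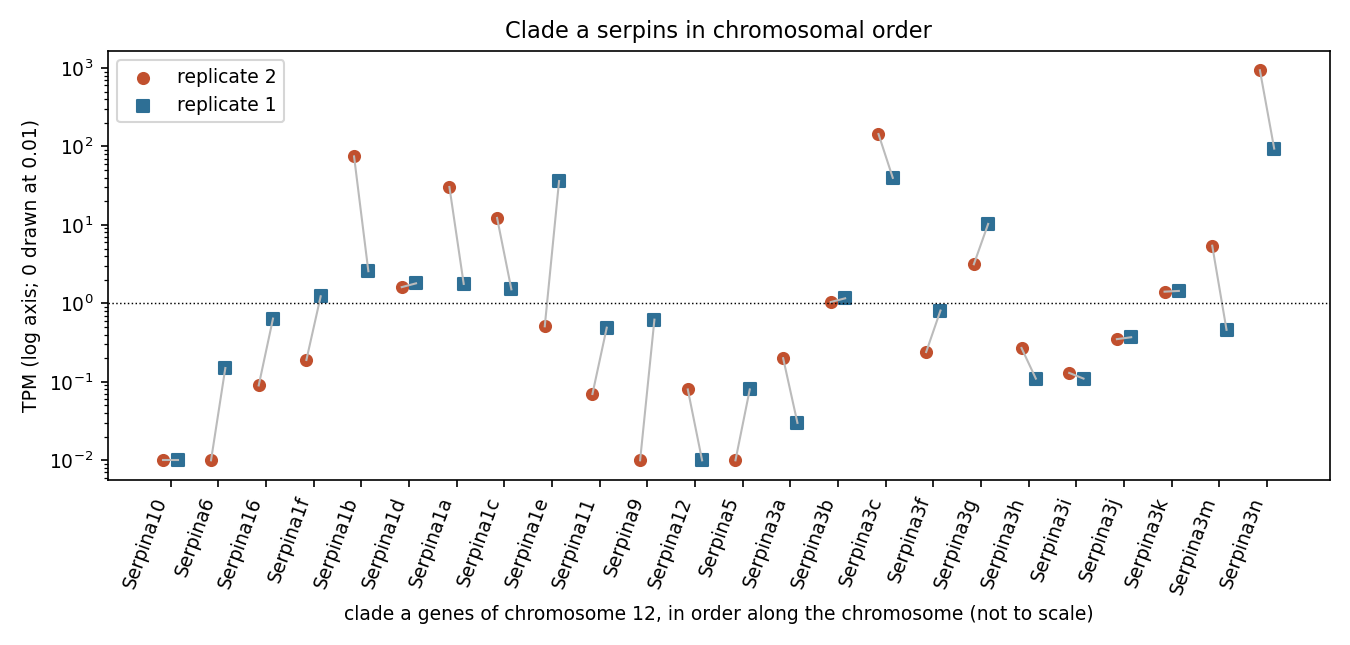
TPM (log axis, 0 drawn at 0.01) of the 24 clade a serpins of chromosome 12 in the order of their starts, replicate 2 on the left of each pair and replicate 1 on the right. Serpina1b to Serpina1c and Serpina3n fall towards replicate 1 or stay level, while Serpina1e climbs to 36.22 TPM in replicate 1.

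An inhibitor of thrombin and the plasminogen activators was called higher in replicate 1. Serpine2, protease nexin 1, a secreted and matrix-bound serpin, had 1294 counts in replicate 2 (32.85 TPM) and 3925 in replicate 1 (95.53 TPM), 2.28-fold (2.14 to 2.43) higher in replicate 1. For Serpine2 the 696-nt transcript Serpine2-203 took 72.68% of the gene's TPM in replicate 2 and 59.35% in replicate 1, so its TPM weighs a short form heavily. Serpine3 had 0 counts in replicate 2 and 2 in replicate 1.

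Plasminogen activators, which Serpine2 can trap, split between the libraries. Plau, the urokinase activator, had 39.05 TPM in replicate 2 and 13.13 TPM in replicate 1, 4.64-fold (4.33 to 4.98) higher in replicate 2, and was chosen after its values were seen. Plat, the tissue activator, had 23.96 TPM in replicate 2 and 171.90 TPM in replicate 1, 4.60-fold (4.40 to 4.80) higher in replicate 1. Each library was thus richer in a different activator. Lrp1, the receptor that clears serpin and activator complexes, was within 2-fold, at 173.18 TPM in replicate 2 and 260.95 TPM in replicate 1. Of the 13 genes found of the plasminogen list, 8 had 1 TPM or more in both libraries, 3 stood over 2-fold higher in replicate 2 and another 5 did in replicate 1. The 5 were Plat, Prss8, St14, Hpn and Lrp2 and the 3 were Plgrkt, Plau and Vtn, listed after their values were seen. The median log2 ratio was -0.80 over the 11 with enough counts. Smooth muscle and epithelial markers, given above, were higher in replicate 1 along with Serpine2 and Plat. Adipocyte markers were higher in replicate 2 along with Plau. The part of these markers in the results was not tested.

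Clade b serpins guard the cytosol, and only 5 of 27 had 1 TPM or more in both libraries. Serpinb6a, which inhibits leukocyte cathepsin G and trypsin-like enzymes, was the highest, and its TPM was nearly equal, with 71.55 TPM in replicate 2 and 70.20 TPM in replicate 1 (mean 70.88 ± 0.955 TPM, SD, n = 2). Its scaled counts, from 3707 in replicate 2 and 3094 in replicate 1, gave a ratio of 1.60 (1.52 to 1.67), within 2-fold. Of the clade b genes 1 was called apart. Serpinb1a, an inhibitor of neutrophil elastase and cathepsin G, had 266 counts in replicate 2 (3.55 TPM) and 835 in replicate 1 (13.04 TPM), 2.36-fold (2.05 to 2.72) higher in replicate 1. Serpinb9, the cell's own shield against granzyme B, had 1328 counts in replicate 2 and 978 in replicate 1, a ratio of 1.81 (1.66 to 1.97). The other expressed members differed by less than the bound. Serpinb8 had 427 counts in replicate 2 and 355 in replicate 1, and Serpinb6b had 217 in replicate 2 and 441 in replicate 1.

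Genes of leukocyte granules, only some of which encode targets of these inhibitors, were sparse. Of 12 neutrophil and mast cell proteases 4 had 1 TPM or more in both libraries, and 4 had 100 or more mean scaled counts. Of these last, the 3 called higher in replicate 1 are genes of mast cells, Tpsb2, Cma1 and Mcpt4. Tpsb2, a tryptase, had 2.02 TPM in replicate 2 and 20.87 TPM in replicate 1. The fourth, Prtn3, proteinase 3 of neutrophils, lay the other way without passing the bound, with 11.12 TPM in replicate 2 and 7.90 TPM in replicate 1, a scaled ratio of 2.17 (1.80 to 2.63). Elane, neutrophil elastase itself, had 78 counts in replicate 2 and 37 in replicate 1, a ratio of 2.81 (1.88 to 4.27) below the count minimum. Ctsg, cathepsin G, had 0 counts in replicate 2 and 1 in replicate 1. Mcpt4, Elane and Ctsg were named after their values were seen. Of 6 cytotoxic granule genes 1 had 1 TPM or more in both libraries, and the 2 with enough counts, Gzmb and Prf1, were called higher in replicate 1. Gzmb, granzyme B, had 0.79 TPM in replicate 2 and 8.70 TPM in replicate 1. The 8 neutrophil markers summed to 15.74 TPM in replicate 2 and 155.02 TPM in replicate 1, in the same direction as Serpinb1a. Only 3 of these markers had enough counts for a call, and all 3 were called higher in replicate 1. Their part in the Serpinb1a result was not tested.

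The other clade b genes were at or near silence. Serpinb11, a serpin typical of epithelia, had 0 counts in replicate 2 and 77 in replicate 1. With the same floor in place of the 0, it was 19.3-fold higher in replicate 1. The lower end of the exact interval from the counts themselves was 15.3-fold. Serpinb5, known as maspin and also epithelial, had 2 counts in replicate 2 and 15 in replicate 1. Epithelial markers were higher in replicate 1 too, as given above. The 11 markers of epidermis were not, with summed levels of 34.26 TPM in replicate 2 and 25.36 TPM in replicate 1. Of the 2 with enough counts, 1 was called higher in replicate 2 and 0 in replicate 1. Serpinb2, an inhibitor of urokinase, shows how little a low TPM can rest on: 1.06 TPM in replicate 1 came from 10 counts, and 0.16 TPM in replicate 2 from 12 counts. All 4 Serpinb3 genes, and 5 of the 7 Serpinb9 genes, had no counts in either library. Among the silent Serpinb9 genes, Serpinb9f and Serpinb9g are 98.7% identical in coding sequence.

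The serpins of clotting were scarce in fat. Serpinc1, antithrombin, had 32 counts in replicate 2 (0.38 TPM) and 49 in replicate 1 (1.57 TPM). Serpind1, heparin cofactor II, had 48 counts in replicate 2 and 14 in replicate 1, a ratio of 4.57 (2.48 to 8.97) below the count minimum. Of 18 coagulation genes listed, 9 had 1 TPM or more in both libraries. Of the 11 with 100 or more mean scaled counts, none was called higher in replicate 2 and 3 were in replicate 1. Below that minimum, F7 and F10, clotting factors named after their values were seen, lay beyond 2-fold towards replicate 2, with ratios of 10.3 (5.64 to 20.7) for F7 and 5.84 (3.93 to 8.93) for F10. The highest was Thbd, the thrombin receptor thrombomodulin of vessel walls, with 105.52 TPM in replicate 2 and 141.50 TPM in replicate 1. Serpini1, neuroserpin, which inhibits the tissue activator in nerve, had 46 counts in replicate 2 and 158 in replicate 1, 2.58-fold (1.85 to 3.66) towards replicate 1, and Serpini2 had none.

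Cathepsins, some of which Serpina3g blocks, were abundant. All 11 listed had 1 TPM or more in both libraries and 3 were over 2-fold higher in replicate 2, none in replicate 1. Ctsd had 3168.43 TPM in replicate 2 and 2193.99 TPM in replicate 1, and Ctsb had 830.28 TPM in replicate 2 and 505.37 TPM in replicate 1, 2.57-fold higher in replicate 2. Tissue kallikreins, by contrast, were low, with 1 of 11 at a TPM of at least 1 in both libraries, Klk8, and of the 2 with enough counts Klk10 was called higher in replicate 1.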

How the data were processed

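Poly(A) RNA of 2 mouse adipose libraries was sequenced as stranded paired reads of 76 nt, per the labels. The authors deposited gene and transcript tables with an expected count per feature, in which reads matching several genes are divided by a model, TPM and FPKM values, and, per transcript, the percent of the gene's TPM. The deposited tables also hold a posterior mean and SD of each count. Genome build mm10 and GENCODE M4 are given in deposited notes; which program counted the reads is not stated in the labels or notes.

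Expected counts were rounded and scaled over annotated genes without spike-ins with TMM factors (edgeR 4.0.16, R 4.3.3), 0.837 for replicate 2 and 1.20 for replicate 1. Each ratio has a 95% interval from how its 2 counts split (exact Clopper-Pearson); calls need an interval wholly above 2 or below 0.5 and a mean scaled count of at least 100. No p-value was computed. TPM was not scaled. Coordinates and transcripts are GENCODE M21 on GRCm38, the build of mm10; 162 of 164 serpin transcripts had sequence. Promoters are from RefSeq (GRCm38.p6). Values by library are given for serpins with a mean TPM of at least 10 or called apart; 1 gene that this rule names is not reported here. Any other was named to account for the family, and of each list the 3 highest members may be named. Klkb1 of the plasminogen list was not matched. Members and lists were chosen with earlier results of these data known. DESeq2 1.42.0 size factors were an alternative. Tables on build mm9 were not used.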

Additional observations from a re-analysis of the deposited data

How the results depend on the processing

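Of the 10 serpins called over 2-fold apart, none changed direction under another scaling, posterior mean counts or TPM with a pseudocount of 0.1 or 1. For the scalings this was fixed in advance, because each shifts all log2 ratios by one amount, smaller than the 2-fold bound. The same 7 were called higher in replicate 2 with DESeq2 size factors, total count, spike-in total, posterior mean counts and the widened interval. The count higher in replicate 1, 3, became 5 with total count and with spike-in scaling, which added Serpina3g and Serpini1, and 7 with a minimum of 10 counts or none; these scalings shift all log2 ratios by -0.51 and -0.46. Without a minimum, 10 were called higher in replicate 2. Total count turned the sign for Serpina1d, Serpina3b, Serpinf1 and Serpinh1, all within 2-fold or below the count minimum. Of 198 log2 ratio values under alternatives, 154 kept sign and side of the bound.

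The 4 serpins of uncertain assignment became 7 above 1%, 2 above 10% and, with 1 library left out, 2 to 4. With FPKM or posterior mean TPM in place of TPM, the mean level moved by less than the spread between libraries in 27 of 28 cases. FPKM was rescaled here to a fixed total over annotated genes, which gives TPM up to a constant per library. The FPKM cases therefore test little. The exception, Serpinb6a with FPKM at 73.28 against 70.88 TPM, reflects that constant beside a small spread. Leaving out a library gives the level of the other one: for Serpina3n the mean of 514.16 TPM became 934.54 without replicate 1 and 93.79 without replicate 2. No paired analysis was possible because there is a single group with 2 libraries. Depth limits genes with few counts: 29 of 63 serpins had a mean scaled count under 10.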

Other observations

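Protease inhibitors of other families were set beside the serpins. Of 22 listed, 14 had 1 TPM or more in both libraries, 5 stood over 2-fold higher in replicate 2 and another 7 did in replicate 1. The median log2 ratio was -0.16 over the 17 with 100 or more mean scaled counts. Cst3, the cathepsin inhibitor cystatin C, led with 1454.93 TPM in replicate 2 and 958.05 TPM in replicate 1, more than any serpin in either library. Wfdc2, a small secreted inhibitor of epithelia, had 0.14 TPM in replicate 2 and 380.30 TPM in replicate 1. A2m, a broad protease trap chosen after its values were seen, had 1 count in replicate 2 and 12347 counts in replicate 1. Timp4, an inhibitor of matrix metalloproteases also chosen after its values were seen, was 17.6-fold (16.7 to 18.7) higher in replicate 2, with 339.31 TPM in replicate 2 and 29.96 TPM in replicate 1.

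Outside the naming rule, 5 annotated serpin pseudogenes were also in the tables. Serpina3d-ps had 5 counts in replicate 2 and 2 in replicate 1, Serpina3e-ps had 1 in replicate 2 and 0 in replicate 1, and Serpina3l-ps, Serpina4-ps1 and Serpinb1-ps1 had 0 in both.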
